A study of Saccharomyces cerevisiae with 16 samples.

Results

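The 434 regions described here are all 50 annotated Ty retrotransposons and all 384 annotated long terminal repeats (LTRs) on the 16 nuclear chromosomes of the *Saccharomyces cerevisiae* reference genome (sacCer3). They were split by the annotation into 50 Ty elements, 96 LTRs lying at least 50% inside an element (Ty-flanking LTRs) and 288 LTRs standing alone (solo LTRs). Peaks of all 8 H3K4me3 libraries merge into 3804 nuclear regions, against which some counts below are read. A member was called with a peak where at least 1 bp of it lay under a peak of a library, and this was compared with the same members moved to 99 rotated positions on their own chromosomes.

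The libraries are H3K4me3 CUT&RUN, an assay in which an antibody-guided nuclease releases the DNA of nucleosomes carrying a histone mark. The strains were BY4741 carrying a 100-kb synthetic locus, either human HPRT1 sequence (synHPRT1) or the same sequence reversed without complementing it (synHPRT1R). Each was held on a yeast artificial chromosome (YAC, grown in SC-Leu) or integrated on chromosome XI (grown in YPD), with 2 replicates in each of 4 groups. Replicates were separate colonies of a strain, so the spread between them may be technical. Locus context and growth medium cannot be told apart. All 8 libraries carry a synthetic locus, and their Ty copies are read through the reference genome: the number and position of Ty elements in these strains was not checked. For synHPRT1 YAC replicate 2 the source name reads synHPRT1R, while the title and genotype read synHPRT1 and were followed.

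Ty elements are retrotransposons that copy themselves through an RNA intermediate. Their RNA is made from a promoter in the left LTR, and gag (TYA), the structural protein gene, and pol (TYB), which encodes protease, integrase and reverse transcriptase, follow it. Recombination between both LTRs of an element deletes its body and leaves a solo LTR. Ty1 and Ty2 are closely related, Ty4 belongs to the same copia-type group, Ty3 is of the gypsy type and integrates at the starts of tRNA genes, and Ty5 prefers silent chromatin. H3K4me3 is laid down by Set1 in COMPASS during transcription and peaks over the first nucleosomes of active genes.

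The families differ in sequence, and so do copies within a family. The first and last 30 bases of a left LTR of each family are shown, the most common pair of ends where a family has several, with the terminal TG and CA that are typical of LTRs in capitals.
Ty1, first bases of the 5′ LTR of YBRWTy1-2 (chrII:259578-259607, + strand): TGttggaataaaaatccactatcgtctatc
Ty1, last bases of the same LTR (chrII:259880-259909): acaattatctaattacccacatatatctCA
Ty2, first bases of the 5′ LTR of YBLWTy2-1 (chrII:29644-29673, + strand): TGttggaataaaaatcaactatcatctact
Ty2, last bases of the same LTR (chrII:29946-29975): acaattacatcaaaatccacattctctaCA
Ty3, first bases of the 5′ LTR of YGRWTy3-1 (chrVII:707195-707224, + strand): TGttgtatctcaaaatgagatatgtcagta
Ty3, last bases of the same LTR (chrVII:707505-707534): tccggtattactcgagcccgtaatacaaCA
Ty4, first bases of the 5′ LTR of YHLWTy4-1 (chrVIII:85539-85568, + strand): TGttggaacgagagtaattgatagtgacat
Ty4, last bases of the same LTR (chrVIII:85880-85909): atactaattttttacctctaattatcaaCA
Ty5, first bases of the 5′ LTR of YCLWTy5-1 (chrIII:1179-1208, + strand): TGttgaatgtggtaacccaatagcatgata
Ty5, last bases of the same LTR (chrIII:1400-1429): taagctagatcgtaattcattacgtcaaCA
The Ty1 ends were found in 7 of 29 left Ty1 LTRs of Ty1 elements and the Ty2 ends in 3 of 10 left Ty2 LTRs, the Ty3 ends in both left Ty3 LTRs and the Ty4 ends in 1 of 3 left Ty4 LTRs. A TG start and a CA end were both found in 81 of 96 Ty-flanking LTRs (84.4%) and in 115 of 288 solo LTRs (39.9%).

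The next sequences are 75 bases from the body of Ty1, Ty2 and Ty3 elements where peaks were highest. For Ty1 and Ty2 the capital marks the median summit position of the family, counted from the 5′ end and drawn on a copy whose own median summit is elsewhere (522 bp in YARCTy1-1, 1118 bp in YDRWTy2-2), and for Ty3 it marks the element's own median summit. Of the Ty1 elements, 27 of 31 hold the Ty1 stretch without a difference, and 4 of 13 Ty2 elements hold the Ty2 stretch. Each Ty3 stretch is found in that element alone.
Ty1, YARCTy1-1 (chrI:165417-165491, - strand): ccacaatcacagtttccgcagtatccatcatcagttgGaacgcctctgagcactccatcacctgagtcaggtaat
Ty2, YDRWTy2-2 (chrIV:872484-872558, + strand): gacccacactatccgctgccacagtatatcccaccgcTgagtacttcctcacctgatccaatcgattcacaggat
Ty3, YGRWTy3-1 (chrVII:709486-709560, + strand): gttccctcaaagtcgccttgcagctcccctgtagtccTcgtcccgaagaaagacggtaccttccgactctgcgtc
Ty3, YILWTy3-1 (chrIX:207572-207646, + strand): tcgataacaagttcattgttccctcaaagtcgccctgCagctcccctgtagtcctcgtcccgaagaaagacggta
A 75-base read from the Ty1 stretch cannot be given to a single copy. The median Ty1 element had 3.81% of its 75-bp windows occurring once in the nuclear genome (range 1.23 to 19.2%), the median Ty2 element 8.21%, and the Ty3 elements 42.7 and 43.6%, while 173 of 288 solo LTRs were unique throughout. The study's methods give 75-bp reads, but its reporting summary lists a read length of 36 bp for these libraries. With 36-bp windows, the unique share was 1.76% in the median Ty1 element, 3.77% in the median Ty2 element and 23.7 to 24.5% in the Ty3 elements, and 115 solo LTRs were unique throughout. Unique shares below are for 75-bp windows unless said otherwise. The aligner gives a read that matches several places to a single one of them, so a Ty1 peak describes the family more than the copy it is drawn on. Between families the peaks can be told apart: none of 17238 windows of Ty2 elements between 400 and 1800 bp occurred in a Ty1 element (48 of 17745 with 36-bp windows), against 41.0% of windows in the first 332 bp, the length of a Ty2 LTR, and 68.5% from 4400 bp to the end.

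Over all 434 members, 17.4% ± 1.26 (SD, n = 8 libraries) had a peak, against 40.0% at rotated positions. The difference was -1.21 ± 0.11 on the log2 scale, a 2.31-fold lower share, and it was lower in 8 of 8 libraries (exact two-sided sign-flip permutation test, p = 0.00781, the smallest that 8 libraries can give, adjusted p = 0.0156 over 8 tests). All libraries score the same members, so this p-value measures agreement between libraries and not the placement of the members. The lowest rotated share in any library was 30.9%, and the highest observed share was 18.7%. The classes behaved differently. When rotated positions were restricted to the same class of nearness to a gene start as the member, the difference over all members was -0.59. Gene starts inside Ty elements counted too, and 47 of the 50 Ty elements fell in the near class. Ty elements are long enough to meet a peak at most positions: 87.2% ± 5.55 had a peak, against 91.8% at rotated positions. The share of their bases under peaks, 18.3% ± 0.919, was lower than the 24.2% of rotated positions (log2 difference -0.40 ± 0.08, lower in 8 of 8, exact permutation test by sign-flip, p = 0.00781, adjusted p = 0.0156). The lower share was not found in Ty1, which makes up 31 of the 50 elements: 24.9% ± 0.858 of Ty1 bases lay under peaks, against 24.3% at rotated positions. It was 8.20% against 24.1% in Ty2, 15.4% against 24.4% in Ty3 and 0.0% in Ty4 and Ty5, against 23.2 and 22.6%. In a library, 19 to 27 of 99 rotated positions were at or below the share of the 2 Ty3 elements. For the 1 Ty5 element 19 to 26 were, so these 2 families lay within the rotated range. For Ty2 and Ty4 no rotated position was as low. Of Ty-flanking LTRs, 24.2% ± 4.65 had a peak, against 34.1%. Of solo LTRs, 2.95% ± 0.999 had a peak, against 32.9%.

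**Figure D1:**
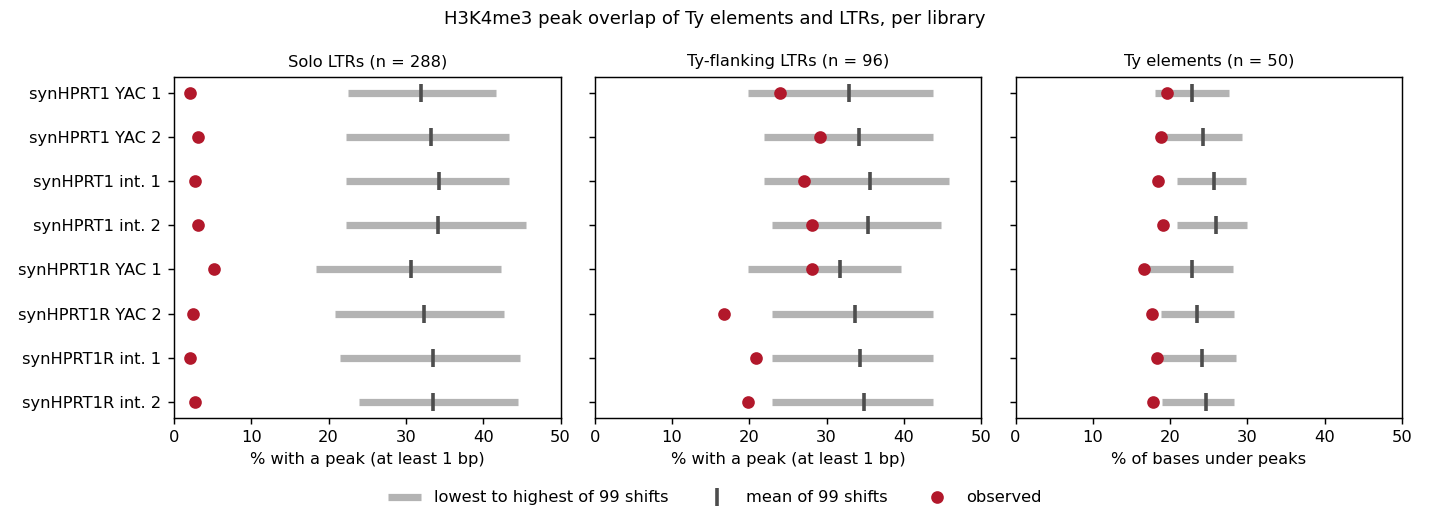
Share of solo LTRs and of Ty-flanking LTRs with a peak, and share of bases of Ty elements under peaks (x axes, percent), in each of 8 libraries (rows). Red points are the observed values, grey bars run from the lowest to the highest of 99 rotated positions and ticks mark their mean. Solo LTRs lie between 2.08 and 5.21%, below every rotated value, and the points of the 2 other classes lie left of the mean tick in each library.

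A peak was called over the start of the coding region of each annotated Ty1 copy. By the rule of at least 1 bp, all 31 Ty1 elements had a peak in all 8 libraries, where rotated Ty1 elements met a peak in 92.5% of cases. All 31 also held a summit in all 8 libraries, and 245 of 248 pairs of element and library held a single summit. The peaks ran from a median of 309 bp to 1748 bp from the 5′ end, so from about the end of the left LTR into the coding region. How much of this lay over TYA and how much over pol was not measured. The summit was at a median of 708 bp, 414 bp past the annotated TYA start. In the body, 100% of bases between 400 and 800 bp lay under a peak in every library, 99.7% ± 0.602 between 800 and 1400 bp and 87.4% ± 5.51 between 1400 and 1800 bp. Between 2600 and 5200 bp, farther along within pol, the share was 0.0% in each library. Of 5912 protein-coding genes outside Ty elements, 49.8 to 57.8% had a summit between 200 bp upstream and 800 bp downstream of the annotated start in a library, at a median of 43 to 132 bp past it. Summits of these genes were sought in that window only, and those of Ty1 in the whole element, so the distances are unlike measures.

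**Figure D2:**
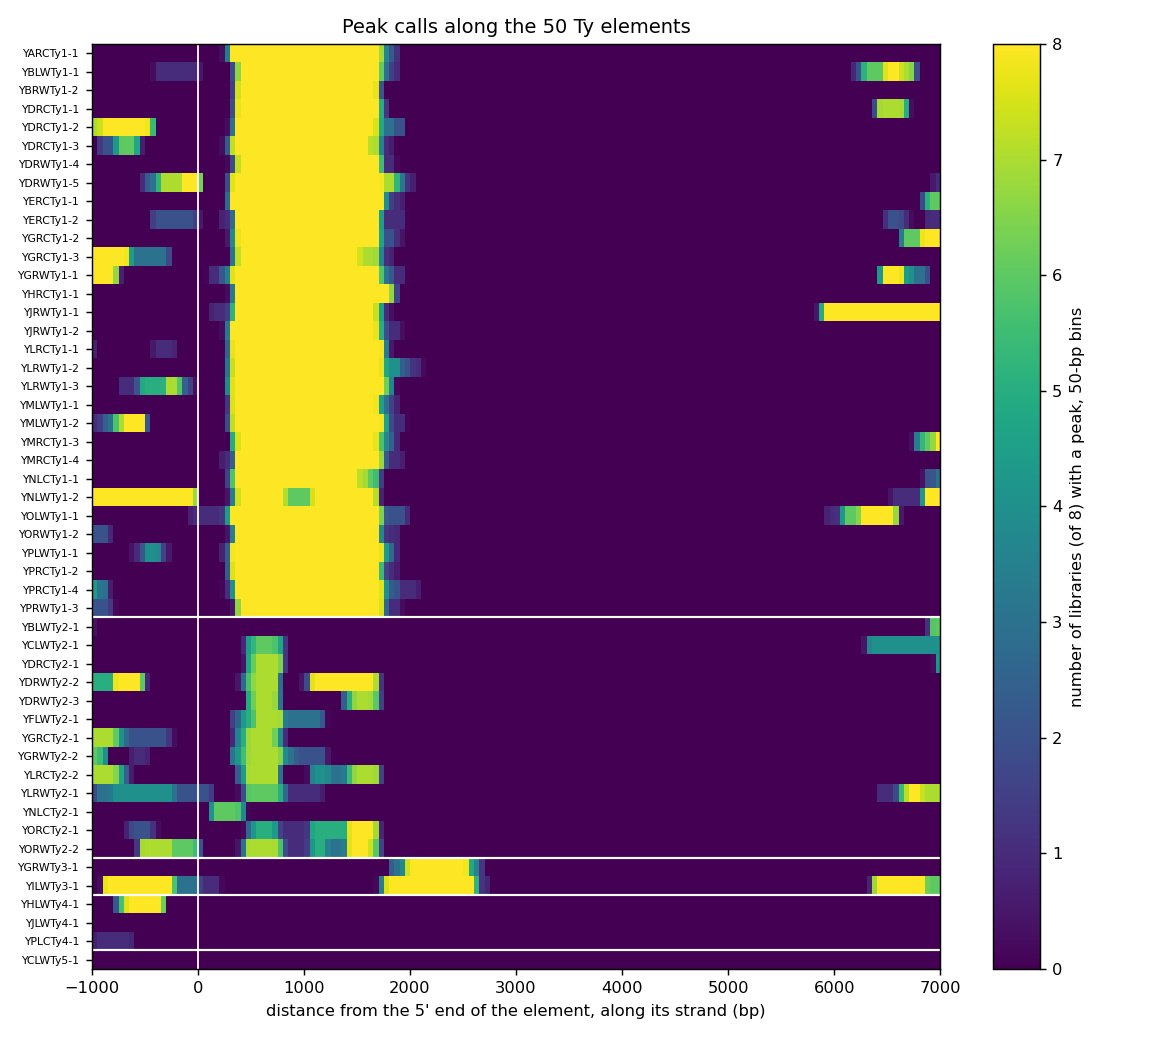
Number of libraries (colour, 0 to 8) with a peak in 50-bp bins along each of 50 Ty elements (rows, grouped by family), from 1000 bp upstream of the 5′ end to 7000 bp along the strand (x axis, bp). Ty1 rows share a band from about the LTR end to 1748 bp, Ty2 rows a narrower and less regular one, and the 2 Ty3 rows a band near 2372 bp, while Ty4 and Ty5 rows are empty inside the element.

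Ty1 peaks were wide and high for these lists. Their median width was 1448 bp, whereas the median of peaks elsewhere on the nuclear chromosomes was 537 to 693 bp in a library. Their median fold enrichment over the local background, as the caller gives it, was 3.21, and 2.29 to 3.60 in a library, against 1.86 to 2.36 for other peaks. The median Ty1 peak stood at the 83.0 to 97.4 percentile of other peaks of its library by fold.

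Ty1 elements differed little in covered length. YDRWTy1-5 (chrIV:1206704-1212621) had the largest share of bases under peaks, 27.9% ± 1.42 (SD, n = 8), followed by YLRWTy1-2 at 26.8% ± 2.55 and YOLWTy1-1 at 26.3% ± 1.96. The lowest were YNLWTy1-2 (chrXIV:519163-525062) at 22.2% ± 1.57, YNLCTy1-1 at 23.1% ± 1.15 and YBRWTy1-2 at 23.1% ± 0.428. Coverage ran from 25.5 to 30.3% in the single libraries of YDRWTy1-5 and from 19.8 to 24.0% in those of YNLWTy1-2. Both were picked as ends of the order by these same values, so the gap between them is no test of a difference between copies. YDRWTy1-5 overlapped both elements after it.

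The fold enrichment of single Ty1 elements was low in the copies with the most sequence of their own between 400 and 1800 bp, but not only in those. YNLCTy1-1 (chrXIV:96610-102523), with 43.8% of windows unique between 400 and 1800 bp, had a fold of 2.2 in the lowest library, 2.76 at the median and 2.94 in the highest. YMRCTy1-3 (chrXIII:357005-362918), 30.8% unique there, had 2.45, 2.57 and 2.71. The lowest median folds of the family, 2.29 and 2.32, were those of YNLWTy1-2, 17.8% unique, and YBLWTy1-1, 15.3% unique (named after its values were seen). YJRWTy1-1, with no unique window there, had a lower median of 2.41, while YPRCTy1-4, 10.2% unique, had 3.60. YNLCTy1-1 and YMRCTy1-3 had a summit in all 8 libraries. With 36-bp windows, 21.4 and 15.3% of this zone was unique in them. Whether their peaks rest on the unique windows was not tested. Over the 31 elements, Pearson's r between the unique share of this zone and the median fold was -0.468 and Spearman's rho -0.213. This is a description over elements that share reads and libraries, and the part of read placement in the fold was not tested.

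**Figure D3:**
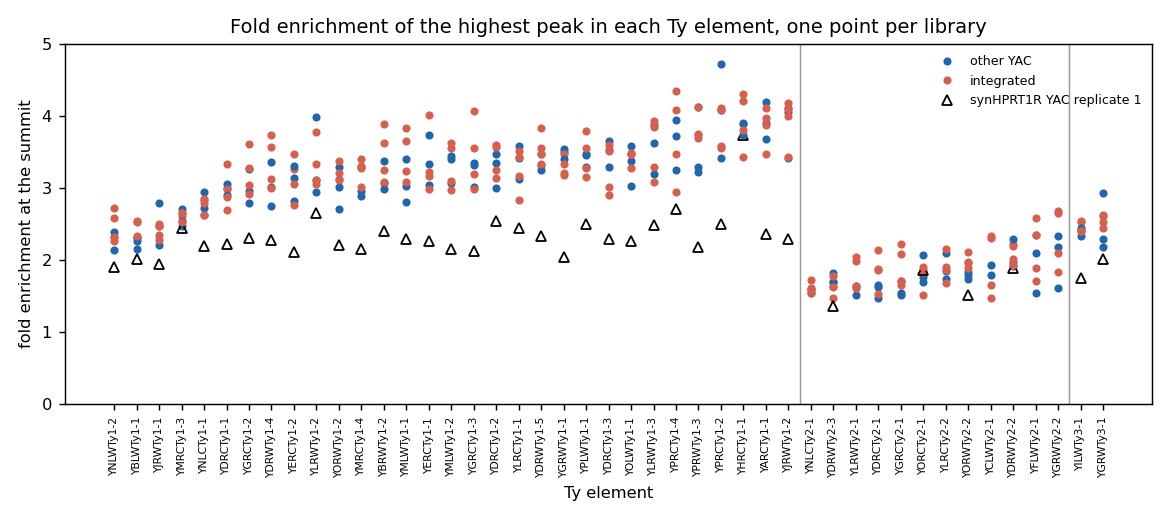
Fold enrichment at the summit of the highest peak (y axis, ratio) in each Ty element with a peak (x axis, ordered by median fold within Ty1, Ty2 and Ty3), 1 point per library. Ty1 values run from 1.90 to 4.72 and Ty2 values from 1.37 to 2.68. The triangles are synHPRT1R YAC replicate 1, whose median Ty1 fold was 2.29, below the 3.04 to 3.60 of the 7 other libraries.

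Ty2 elements had smaller peaks at a like place. With a peak were 81.7% ± 21.3 of them, against 92.0% at rotated positions. A summit was found in 12 of 13 elements, in 12, 11, 12, 12, 4, 10, 12 and 12 of them in the 8 libraries (synHPRT1 YAC 1 and 2, synHPRT1 integrated 1 and 2, synHPRT1R YAC 1 and 2, synHPRT1R integrated 1 and 2). The low count of 4 is synHPRT1R YAC replicate 1, and no other library fell under 10. The median Ty2 peak was 347.5 bp wide with a fold of 1.74, below the Ty1 median fold in each library. Its bases under peaks were 8.20% ± 2.72, against 24.9% ± 0.858 for Ty1 in the same libraries.

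The Ty2 summits were at a median of 700 bp from the 5′ end and 418.5 bp past the TYA start, close to the Ty1 position. Between 400 and 800 bp, 60.2% ± 25.4 of Ty2 bases lay under peaks. The 8 values were 73.0, 64.3, 72.3, 78.3, 0.0, 55.3, 73.2 and 65.4% in the library order above, with synHPRT1R YAC replicate 1 alone at 0.0%. A second set of peaks lay between 1400 and 1800 bp, with 26.9% ± 4.18 of bases covered, and 17.2% ± 10.4 were covered between 800 and 1400 bp. As the plot along the elements shows, the second position was held by a part of the elements.

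YDRWTy2-2 (chrIV:871821-877779), which had both positions, reached the highest Ty2 share of bases, 16% ± 2.0 (SD, n = 8), and YORWTy2-2 and YLRCTy2-2 followed at 14.0% ± 4.95 and 13.5% ± 6.49. YLRCTy2-2 had 0.0% in synHPRT1R YAC replicate 1 and 10.3 to 19.9% in the 7 other libraries. The lowest were YBLWTy2-1, YCLWTy2-1 at 4.24% ± 2.74 and YNLCTy2-1 at 4.46% ± 2.80. YBLWTy2-1 (chrII:29644-35602) had no peak in any library, and 24.0% of its windows were unique, the highest share in the family. Whether these strains carry it was not checked.

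Ty3 differed in where the mark lay. Both Ty3 elements had a single summit in each of 8 libraries, at 2279 to 2436 bp from the 5′ end (median 2372 bp), 1957 bp past the gag start at the median and so far into the coding region. Between 1800 and 2600 bp, 92.6% ± 3.92 (SD, n = 8) of Ty3 bases lay under peaks, between 400 and 1400 bp 0.0% did in any library and between 1400 and 1800 bp, the last part of the zone covered in Ty1, 8.64% ± 3.36. Between 1800 and 2600 bp, 36.4% of windows of YGRWTy3-1 and 42.9% of YILWTy3-1 were unique (17.2 and 22.3% with 36-bp windows). YGRWTy3-1 (chrVII:707195-712545) lies 15 bp from a tRNA gene, had 13.3% ± 1.07 of its bases under peaks, and a fold of 2.02, 2.49 and 2.93 in the lowest, median and highest library. YILWTy3-1 (chrIX:205220-210647), 17 bp from a tRNA gene, had 17.4% ± 1.37 and a fold of 1.75, 2.41 and 2.55. Their peaks were 807 bp wide at the median, between those of Ty2 and Ty1.

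Ty4 and Ty5 had none. The 3 Ty4 elements, YHLWTy4-1 (chrVIII:85539-91761), YJLWTy4-1 (chrX:197545-203768) and YPLCTy4-1 (chrXVI:436890-443112), had no peak in any of 8 libraries. Rotated Ty4 elements met a peak in 91.2% of cases. YJLWTy4-1 had 44.4% unique windows between 400 and 1800 bp. YCLWTy5-1 (chrIII:1179-4322), the single Ty5 element, was unique throughout, had no peak, and lies near the end of the chromosome, 4004 bp from the start of its nearest gene. Rotated copies of this element met a peak in 77.5% of cases. With 3 elements and 1 element, these families give no test.

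The LTRs of an element split by side. The family of an LTR is taken from its own annotation, so 4 LTRs annotated as Ty1 flank Ty2 elements. Of 31 left (5′) Ty1 LTRs, 27 had a peak in some library, 12 in all 8 and 15 to 25 in a library. Of 33 right (3′) Ty1 LTRs, 2 had a peak, and 1 to 2 in a library, so the counts of the sides did not overlap. The first of these, chrX:478051-478384, is both the right LTR of YJRWTy1-1 and the left end of YJRWTy1-2, and the other is chrXV:123291-123628. These 2 were singled out after their values were seen. Left Ty2 LTRs had a peak in 5 of 10 and right ones in 0 of 10. Of the left Ty3 LTRs, that of YILWTy3-1 had a peak in 3 libraries, and no Ty4 or Ty5 LTR inside an element had a peak. Both LTRs of an element are copied from the same template, so reads from within them can seldom be told apart by side.

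The overlap of the left LTR is the upstream edge of the body peak: a mean of 9.37% of bases of left Ty1 LTRs lay under a peak, and 1 Ty-flanking LTR held a summit, chrIV:1206704-1207037, the left LTR of YDRWTy1-5, in 1 library. Over all 96 Ty-flanking LTRs, 3.52% ± 1.85 of bases lay under peaks, against 24.0% at rotated positions, and the share with a peak was lower than at rotated positions by 0.52 ± 0.30 on the log2 scale, in each of 8 libraries (exact permutation test by sign-flip, p = 0.00781, adjusted p = 0.0156). When weak peaks were left out (−log10 q under 10), the difference was -0.27 and no longer passed (p = 0.0625, exact permutation test). The lower share with a peak was not shared by the 64 Ty1 LTRs, 33.0% ± 5.31 of which had a peak, against 34.1% at rotated positions, with 10 to 98 of 99 rotated values at or below them in a library. It was 8.75% ± 7.44 against 35.1% for the 20 Ty2 LTRs. For all 96, in the single libraries 0 to 20 of 99 rotated positions were at or below the observed share.

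Solo LTRs were almost without H3K4me3 peaks. In the synHPRT1 YAC libraries 6 and 9 of 288 had a peak. The counts were 8 and 9 in the integrated synHPRT1 libraries. For synHPRT1R, the YAC libraries had 15 and 7 and the integrated libraries 6 and 8. The highest value, 15, is again synHPRT1R YAC replicate 1. The share was 11.6-fold lower than at rotated positions (log2 difference -3.54 ± 0.45, lower in 8 of 8, exact permutation test by sign-flip, p = 0.00781, adjusted p = 0.0156), and in each library none of 99 rotated positions reached as low. In all, 271 of 288 had no peak in any library.

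The difference was smaller when nearness to a gene start was held alike, and the cause of this was not tested. Only 36 of 288 overlapped the window from 200 bp upstream to 800 bp downstream of a protein-coding gene start, where the H3K4me3 peaks of genes lie. When rotated positions were restricted to those in the same class as the member, inside or outside such a window, the difference was -2.18 on the log2 scale (exact sign-flip permutation test over 8 libraries, p = 0.00781). Inside a window, 8.68% ± 0.982 of the 36 LTRs had a peak, against 54.4% of rotated positions of this class. Outside, 2.13% ± 1.02 of 252 did, against 6.90%.

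The share under peaks rose with distance from the LTR. Within 100 bp of the LTR centre, 1.68% ± 0.524 (SD, n = 8) of positions lay under peaks, 15.9% ± 1.86 at 500 to 1000 bp, 20.3% ± 1.36 at 1000 to 2000 bp and 20.4% ± 1.37 at 2000 to 4000 bp. The nuclear genome had 24.2% ± 1.18. The lowest level was at the LTR. From 1000 to 4000 bp the highest library reached 21.9%, still below the 22.8% of the lowest library over the genome.

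**Figure D4:**
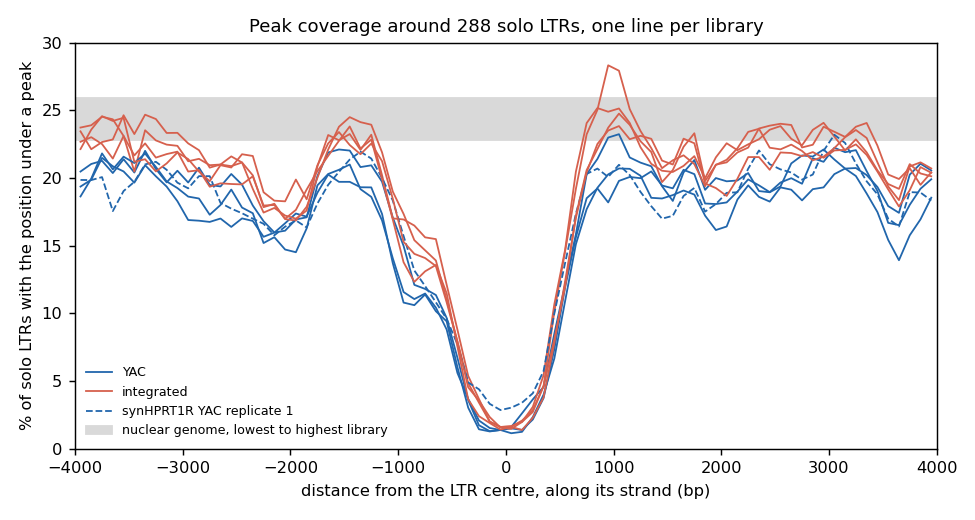
Share of 288 solo LTRs with the position under a peak (y axis, percent) against distance from the LTR centre along its strand (x axis, bp, 100-bp bins), 1 line per library. The grey band is the share of the nuclear genome under peaks, 22.8 to 25.9%. All 8 lines fall to their lowest values at or near the centre, and the mean of the central zone is 1.68%.

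The lack was seen in subsets. tRNA genes, next to which Ty1, Ty3 and Ty4 insert, lay within 500 bp of 185 solo LTRs. Of these, 1.96% ± 0.814 had a peak, against 33.2% at rotated positions and 11.7% at those of the same gene start class. Of the 103 others 4.73% ± 1.51 did, against 32.6 and 15.0%. Solo Ty3 LTRs lay a median of 16 bp from a tRNA gene. Of the 173 solo LTRs unique throughout, 3.97% ± 0.784 had a peak, against 32.3% at rotated positions, and of the 115 unique throughout with 36-bp windows 5.76% ± 0.922, against 32.4%, so the low share was also found where reads can be placed. Of the 34 under 50% unique, none had a peak in any library, against 34.8% at rotated positions. By family, solo Ty1 LTRs had a peak in 3.51% ± 1.38 of 203, against 32.6% at rotated positions. Solo Ty4 LTRs had one in 3.45% of 29 (the same LTR in each library), against 35.3%. Solo Ty3 LTRs had one in 0.987% ± 1.36 of 38, against 32.7%. The 12 Ty2 and 6 Ty5 LTRs had none, against 33.7 and 32.0%. For Ty5, 8 to 14 of 99 rotated positions in a library had none as well.

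The solo LTRs with a peak in all 8 libraries numbered 5, and were named after their values were seen, since no solo LTR held a summit in all 8. Those with the most summits held 1 in 7 libraries. These were chrVII:793237-793559, by CCM1, which encodes a mitochondrial RNA-processing protein (184 bp from its start), with 87.6% of bases under peaks on average, and chrXVI:777832-778154, by THI22, a gene of the thiamine family (429 bp), with 96.7%. The third, chrX:421946-422295, is a Ty4 LTR 283 bp from the start of CCT8, a subunit of the cytosolic chaperonin, with 74.6% of bases covered. The fourth, chrXI:219395-219723, lies 178 bp from VPH2, which is needed to assemble the vacuolar proton pump, with 48.4% covered. The fifth, chrV:99490-99664, was under peaks over its whole length in 8 of 8 libraries and held no summit, so the peaks reached across it from beside it. It is unique in the genome, and its sequence is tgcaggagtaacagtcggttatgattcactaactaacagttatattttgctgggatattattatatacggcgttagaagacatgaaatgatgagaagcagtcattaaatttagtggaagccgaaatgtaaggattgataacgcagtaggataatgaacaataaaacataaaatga (- strand), shown since it was the one LTR covered in full in every library.

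The groups were compared last. Of solo LTRs, 3.21% ± 1.40 had a peak in the 4 YAC libraries and 2.69% ± 0.437 in the 4 integrated ones (difference 0.521 percentage points, exact permutation test over 70 exchanges, two-sided, p = 0.743, adjusted p = 0.849). The shares were 3.12% ± 1.42 in synHPRT1R and 2.78% ± 0.491 in synHPRT1 (0.347 points, exact permutation test, p = 0.914, adjusted p = 0.914). Ty bases under peaks were 18.2% ± 1.28 in YAC and 18.4% ± 0.556 in integrated libraries (-0.214 points, exact permutation test, p = 0.743, adjusted p = 0.849). None of these differences was larger than the spread between libraries. No member was under a peak throughout 1 context (4 of 4 libraries) while free of peaks in the other, against 0.762% of the 3804 merged nuclear regions. These shares have unlike bases: each merged region holds a peak in some library, while 337 of 434 members had none in any.

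Ty bases under peaks differed between the loci. They were 19.5, 18.9, 18.5 and 19.1% in the 4 synHPRT1 libraries and 16.6, 17.7, 18.2 and 17.8% in the 4 synHPRT1R libraries, and the groups did not overlap. The means were 19.0% ± 0.443 and 17.6% ± 0.679, a difference of -1.40 points (exact permutation test, p = 0.0286, the smallest it can give, adjusted p = 0.0457). The share of the whole nuclear genome under peaks was 22.8 to 25.9% in the synHPRT1 libraries and 22.8 to 24.7% in the synHPRT1R libraries. Taken relative to that share, an alternative chosen after seeing the data, the difference was -0.0335 and did not pass (exact permutation test, p = 0.4). Without synHPRT1R YAC replicate 1 it was -1.09 points (exact permutation test, p = 0.0571). Within the YAC libraries it was -2.03 points and within the integrated ones -0.78, with 2 libraries a group and no test.

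A single member had a peak in all 4 synHPRT1 libraries and in none of the 4 synHPRT1R libraries. Of the 3804 merged regions, which have the unlike base given above, 0.0% did. The member is the left LTR of YGRWTy2-2 (chrVII:811447-811778), named for this count. Peaks covered 7.23, 7.23, 1.2 and 10.2% of its bases in the synHPRT1 libraries, the upstream edge of a peak of the element body. The element itself had a summit in 7 libraries, 3 of them synHPRT1R, so the separation was at the edge of the peak.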

How the data were processed

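The peak lists of 8 H3K4me3 CUT&RUN libraries were used, and the 8 IgG libraries of the series were not. Per the study's methods, the authors trimmed reads with Trimmomatic, aligned read pairs (75 bp in the methods, 36 bp in the reporting summary) with Bowtie2 2.2.9 to sacCer3 plus the synthetic contig and called peaks in each library alone with MACS2 2.1.0, keeping duplicates and naming no control. No filter on mapping quality is stated. The deposited lists give a fold enrichment (a ratio over local background) and a p-value and q-value as −log10. The deposited integer score, 10 times −log10 q, was not used. A library held 3463 to 4049 peaks, with a lowest −log10 q of 1.38 to 1.66. Read depth is not in the lists. The read counts that the reporting summary gives for each library entered no test, and are named below for synHPRT1R YAC replicate 1 only. A missing peak is therefore not an absence of the mark.

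Members, families and gene starts came from the reference annotation of the same build (R64), and no peak ran past a chromosome end. Uniqueness is the share of 75-bp windows, or of 36-bp windows where said (added after seeing the data), found once in the nuclear genome, on either strand. Members were rotated 99 times within chromosomes. The log2 ratio of observed to mean rotated share was tested by exact sign-flip over 8 libraries (256 patterns), groups of 4 and 4 by exact exchange (70), with Benjamini-Hochberg adjustment over 8 tests, in Python 3.11.15 with numpy 2.4.6. The tests treat colonies of a strain as independent. Since all libraries score the same members, the sign-flip tests measure agreement between libraries, not how often rotated positions reach the observed share. The overlap code was tested on simulated data.

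Named were every Ty3, Ty4 and Ty5 element, the 3 highest and 3 lowest Ty1 and Ty2 elements by share of bases under peaks, solo LTRs or Ty elements with a summit in all 8 libraries (for Ty, outside gene start windows, which gave none), and members separating the contexts. Gene start windows include those of 90 protein-coding genes inside Ty elements. Since 47 of 50 Ty elements, with all 31 Ty1, overlapped a window, this rule could hardly name a Ty element. Others are marked as named after their values were seen. The members, lists and tests were chosen with earlier results of these data known. Peaks at URA3 and MET17 were found in 0 of 8 libraries, at LEU2 in the 4 YAC libraries and at ACT1 and TDH3 in 8. No 2 lists were identical.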

Additional observations from a re-analysis of the deposited data

Results flagged for a closer look

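The results below stand out because a single library lay far from the rest of its group, by a gap that chance gives in about 1 in 20 groups. Of 7 such results, 6 are in synHPRT1R YAC replicate 1, whose list also holds the fewest peaks (3463). The study's reporting summary gives this library the most mapped and paired reads of the yeast H3K4me3 libraries. In this library 5.21% of solo LTRs had a peak, against 2.08 to 3.12% in the 7 others, and 3 solo LTRs had a peak in it alone. A peak was found in 74.0% of its Ty elements, against 86 to 90% in the others. The median fold of its Ty1 peaks was 2.29, against 3.04 to 3.60. It had 4 Ty2 elements with a summit, against 10 to 12. Of Ty2 bases between 400 and 800 bp, 0.0% lay under a peak, against 55.3 to 78.3%, and between 1400 and 1800 bp 18.3%, against 29.1 to 30.0% in the 3 other YAC libraries. Over all peaks outside Ty elements its median fold was 1.86, the lowest of 8 libraries.

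The remaining result is Ty2 in synHPRT1 integrated replicate 2, where 40.5% of bases between 800 and 1400 bp lay under peaks, against 9.64 to 21.1% in the others.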

How the results depend on the processing

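The share of all members and of solo LTRs with a peak stayed below rotated positions, past the threshold, in all 16 alternatives run for each, and so did Ty bases under peaks in all 11. For all members the value moved from -1.21 to -0.59 with rotated positions of the same gene start class and to -0.79 with a summit inside, and to -4.29 with peaks over at least 50% of the member and -3.31 with members at least 50% unique (-3.24 with 36-bp windows, chosen after seeing the data). For solo LTRs the same gene start class gave -2.18. For Ty-flanking LTRs, peaks of −log10 q of at least 10 gave -0.27 (exact sign-flip permutation test, p = 0.0625). No value could be had for Ty-flanking LTRs with a summit inside, 50% covered or 50% unique, since a library was at 0, nor for Ty elements at least 50% unique, where only the Ty5 element was left. The same held with 36-bp windows. The causes of these changes were not tested.

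The group differences were less stable. With −log10 q of at least 10, solo LTRs differed by -0.521 points between YAC and integrated and by -0.174 between synHPRT1R and synHPRT1, turning the sign of differences that did not pass. Relative to the share of the genome under peaks, Ty bases differed by 0.046 between contexts, and by -0.0335 between loci. Leaving out each library in turn gave -0.145 to 0.897 points for solo LTRs between contexts, -0.66 to 0.303 for Ty bases between contexts, -0.347 to 0.694 for solo LTRs between loci and -1.62 to -1.09 for Ty bases between loci (exact permutation test, p = 0.0286 to 0.0571). The last lost its call in 4 of 8 cases: without synHPRT1 YAC replicate 1 (-1.23) or 2 (-1.44), synHPRT1 integrated replicate 2 (-1.37) or synHPRT1R YAC replicate 1 (-1.09). Against rotated positions, leaving out a library gave -3.68 to -3.47 for solo LTRs, -1.23 to -1.18 for all members, -0.57 to -0.45 for Ty-flanking LTRs and -0.43 to -0.39 for Ty bases.

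Replicate numbers only name colonies. Differences between replicates 1 and 2 over members correlated at -0.513 to 0.0219 over the 6 pairs of groups, so the numbers do not pair the libraries. With the replicate block, Ty bases between loci kept -1.40 points at p = 0.125, the smallest p that this exact permutation test can give, and the other 3 comparisons had p of 0.625 to 1.0.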
